A study of Mus musculus with 8 samples.

Results

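The genes of cholesterol and fatty acid synthesis described here are 33 targets and regulators of the sterol regulatory element-binding proteins (SREBPs), taken by name. They comprise 18 enzymes of the sterol branch, 9 enzymes of fatty acid synthesis and desaturation, and 6 genes that regulate the pathway or carry sterol. All 33 were found among the 53647 gene identifiers of the count tables, and all 33 were among the 16352 genes that passed the filter on low counts. The cells came from mouse bone marrow and were selected as Lin- CD127+, that is, without the surface markers of mature blood cells and with the interleukin 7 receptor alpha chain. The 4 wild-type (WT) libraries carry the genotype Trerf1 +/+, and the 4 knockout (KO) libraries the genotype Tref1 -/-, read here as Trerf1 because the series names a Trerf1 knockout. Trerf1 encodes a zinc finger regulator of transcription. No treatment, age, strain or driver of the deletion is given in the sources used here. The question is whether RNA of these lipid genes differs between the genotypes. The labels do not say whether the numbered libraries came from separate animals, and p-values therefore reflect only how these libraries vary.

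SREBPs are made as precursors in the membrane of the endoplasmic reticulum. There SCAP binds them, and when sterols are plentiful the INSIG proteins hold SCAP back. When sterols run low, SCAP carries the precursors to the Golgi, where proteases release a fragment that enters the nucleus and switches on the synthesis genes. SREBP-2, from Srebf2, acts mainly on the sterol branch, and SREBP-1, from Srebf1, mainly on fatty acid synthesis. Dividing cells need both products for new membrane.

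Libraries held between 31109744 and 73414626 counts, and WT2, WT4 and KO4 were the deepest. Levels per library are given as TMM-scaled CPM (counts divided by a library's scaled total), and levels compared between genes as TPM, the share of transcripts after allowing for gene length. Trerf1 stood at 29.0, 32.1, 27.1 and 22.3 CPM across WT1 to WT4, against 13.4, 12.8, 12.1 and 22.1 CPM across KO1 to KO4, so the library labelled KO4 stood close to WT4 and well above KO1 to KO3. For that reason the comparisons are also given without WT4 and the library labelled KO4. Xist RNA was abundant in WT1, WT4, KO1, KO3 and the library labelled KO4 and near 0 in WT2, WT3 and KO2. Il7r, which encodes CD127, stood at 269 to 415 CPM. Markers of T cells, which the sort should remove, summed to 12.5 to 37.4 CPM over 3 genes. Other marker lists summed higher, to 270 to 436 CPM for the B lineage and 160 to 327 CPM for neutrophils. Markers of monocytes and macrophages summed to 7584 to 15339 CPM, mostly from Psap, Ctsb and Mpeg1. Those of plasmacytoid dendritic cells summed to 4747 to 7769 CPM, with Ly6d, which is also in the early lymphoid list used below. Both of these sums were highest in WT4. In bulk RNA, fewer cells of a type and less RNA per cell cannot be told apart.

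No member passed the test between genotypes. In edgeR's quasi-likelihood test 0 of 33 members had a Benjamini-Hochberg adjusted p under 0.05, against 0 of 16352 genes tested (0%). Fasn was the single member with an unadjusted p under 0.05, where 322 genes had one (1.97%), 152 of them with a lower estimate in the knockout (0.93%). The 4 knockout libraries lay wholly above or wholly below the 4 wild-type libraries for 0 of the 33 members, and for 210 of all genes tested (1.28%). The estimate was above 0, meaning higher in the knockout, for 20 of 33 members and for 51.7% of all genes tested. The median log2 fold change was 0.02 over the members and 0.01 over all genes tested.

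**Figure D1:**
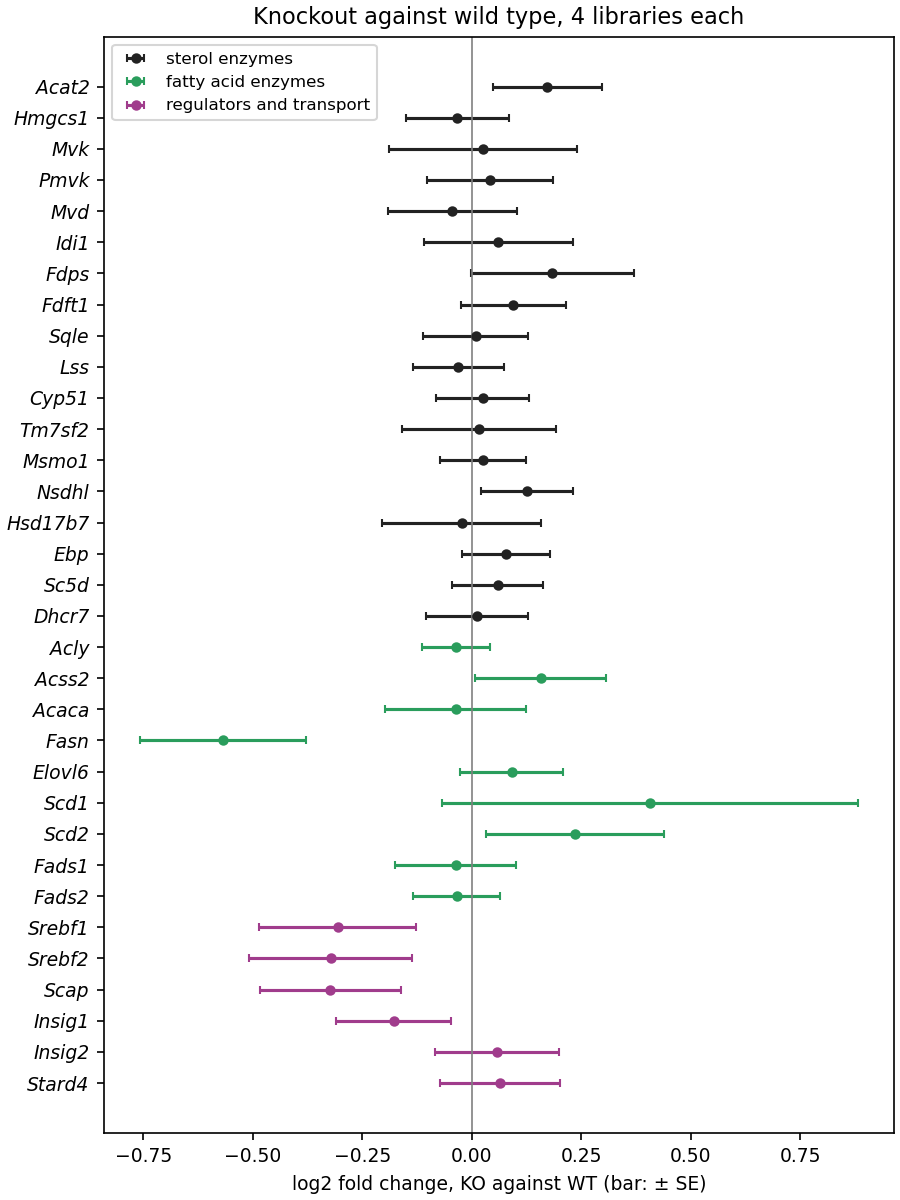
Log2 fold change of each of the 33 members, knockout against wild type (horizontal axis), from edgeR over 4 libraries a group. Points are estimates and bars are ± 1 SE. Most members lie close to 0, and Fasn, at -0.57, stands farthest from it on the lower side.

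The pathway was expressed throughout in these cells, over a wide range of levels. Fdps, which makes farnesyl diphosphate, stood at only 17.6 to 31.5 CPM in counts, which leave out reads that fit several places. In TPM, however, it had the highest wild-type mean, at 297 ± 37.6 TPM (SD, n = 4), so its rank depends on the measure. It was followed by Acly, which makes cytosolic acetyl-CoA from citrate, at 125 ± 4.49 TPM (SD, n = 4), and by Srebf2 at 105 ± 23.4 TPM (SD, n = 4), whose SD reached the level of Acly. Fads2, Ebp, Msmo1, Acat2, Idi1, Hmgcs1 and Sqle came next with wild-type means from 95.6 down to 66.2 TPM, and neighbours in that order differed by less than the sum of their SDs. At the low end stood Acss2 at 11.9 ± 1.58 TPM (SD, n = 4), Acaca at 3.75 ± 0.0675 TPM (SD, n = 4) and Scd1 at 1.15 ± 0.727 TPM (SD, n = 4). Thus the enzyme that commits acetyl-CoA to fatty acid synthesis, acetyl-CoA carboxylase, was among the least abundant of these RNAs.

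**Figure D2:**
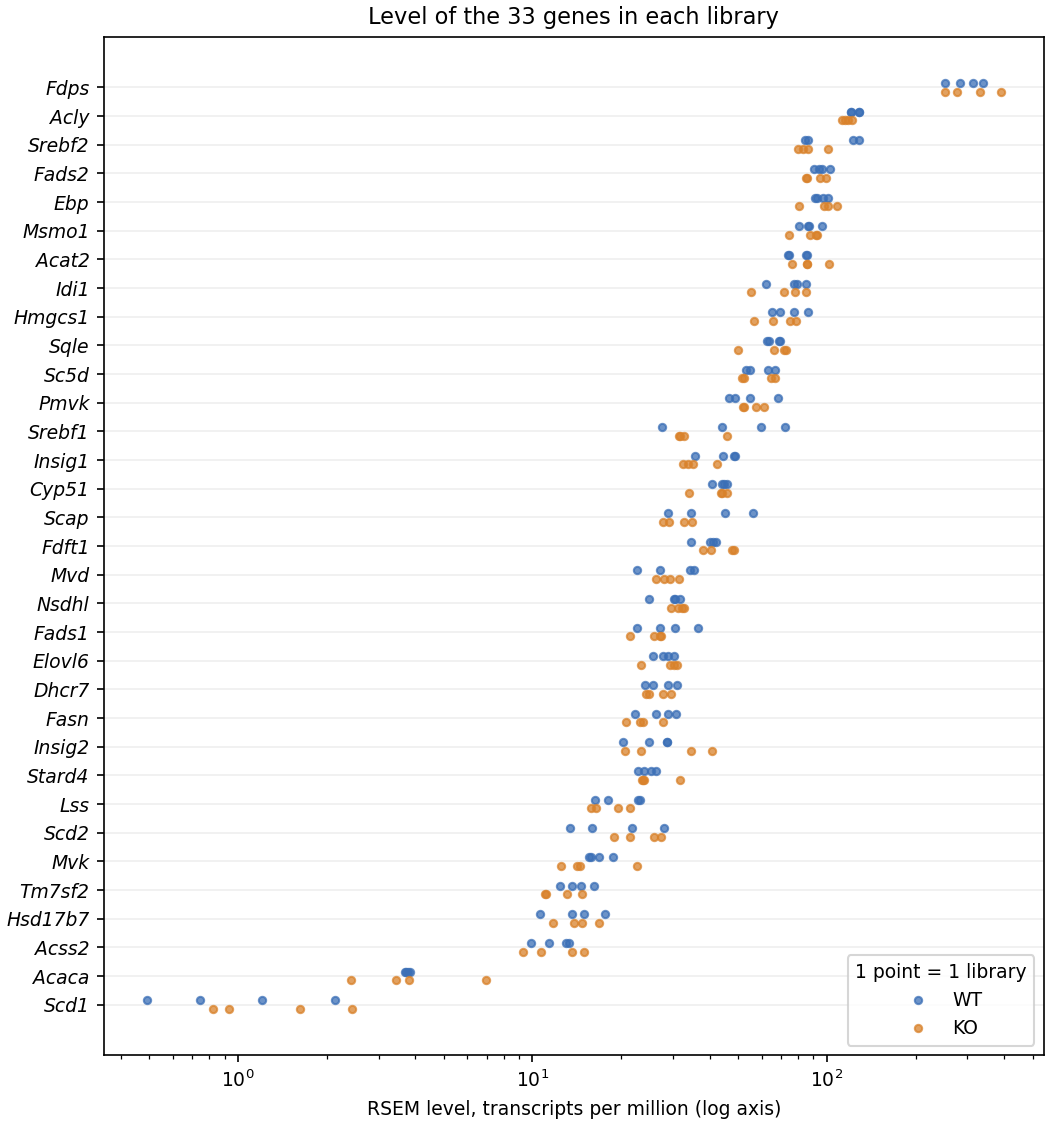
Level of each member in TPM (log axis) in the 8 libraries, with members ordered by their wild-type mean. Points are single libraries, wild type and knockout in different colours. In TPM, though not in counts, Fdps is the highest member. Scd1 is the lowest, and the colours overlap for every member.

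The sterol branch opens with Acat2, which joins acetyl-CoA units in the cytosol. Acat2 gave 77.6, 75.05, 88.0 and 92.1 CPM across WT1 to WT4, against 76.9, 111, 101 and 86.4 CPM across KO1 to KO4. KO2 and KO3 were the highest libraries, and KO1 and the library labelled KO4 lay within the wild-type range. Its log2 fold change was 0.17 ± 0.13 (unadjusted p = 0.196), the smallest unadjusted p among the sterol enzymes. Hmgcs1, the HMG-CoA synthase of the next step, gave 116, 136, 139.6 and 125 CPM across WT1 to WT4, against 119.9, 137, 145 and 102 CPM across KO1 to KO4. The library labelled KO4 was the lowest of all 8 and KO3 the highest, so the knockout spanned the whole wild-type range. The log2 fold change of Hmgcs1 was -0.03 ± 0.12. Mvk, Pmvk and Mvd, which carry mevalonate to isopentenyl diphosphate, ranged from 14.2 to 28.8, 41.0 to 62.6 and 33.7 to 48.4 CPM over the 8 libraries. Their log2 fold changes were 0.02 ± 0.22, 0.04 ± 0.14 and -0.04 ± 0.15.

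Idi1, which isomerises isopentenyl diphosphate, gave 22.4, 26.7, 26.8 and 34.1 CPM across WT1 to WT4, against 20.8, 32.1, 32.2 and 29.7 CPM across KO1 to KO4. WT1 and KO1 were lowest and WT4 highest. Fdps gave 19.8, 17.6, 24.4 and 23.2 CPM across WT1 to WT4, against 17.4, 31.5, 26.0 and 21.6 CPM across KO1 to KO4. KO2 was highest and KO1 lowest, with every wild-type library between them. Their log2 fold changes were 0.06 ± 0.17 and 0.18 ± 0.19 (unadjusted p = 0.346). Counts of both genes are uncertain, as they were low against the RSEM expected counts. The counts leave out reads that fit several places, and whether that lowered them was not tested. There were 0.30 to 0.40 counts per RSEM expected count for Fdps and 0.66 to 0.81 for Idi1, against 2.53 to 6.58 for the other members. In TPM, Fdps stood at 297 ± 37.6 TPM (SD, n = 4) in wild type and 313 ± 61.1 TPM (SD, n = 4) in knockout.

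After squalene is made by Fdft1, Sqle adds the oxygen needed for ring closure. Sqle gave 131, 128, 145 and 152 CPM across WT1 to WT4, against 113, 156, 160.1 and 131 CPM across KO1 to KO4. KO1 was lowest and KO3 highest, and the groups overlapped fully. Cyp51, which removes a methyl group from lanosterol, gave 103, 114, 114 and 127 CPM across WT1 to WT4, against 104, 128, 129.9 and 106 CPM across KO1 to KO4. WT1, KO1 and the library labelled KO4 were the lower libraries, while WT4, KO2 and KO3 were the higher ones. Nsdhl, another enzyme of the later steps, lies on the X chromosome. It gave 40.9, 48.0, 45.4 and 51.7 CPM across WT1 to WT4, against 47.2, 56.6, 51.8 and 47.5 CPM across KO1 to KO4. WT1 was lowest and KO2 highest, with KO1 and the library labelled KO4 inside the wild-type range. Dhcr7, the last-step reductase, gave 46.1, 56.3, 52.4 and 53.8 CPM across WT1 to WT4, against 47.4, 62.3, 54.5 and 46.2 CPM across KO1 to KO4. Its lowest libraries were again WT1, KO1 and the library labelled KO4. The log2 fold changes were 0.01 ± 0.12 for Sqle, 0.02 ± 0.11 for Cyp51, 0.13 ± 0.11 (unadjusted p = 0.257) for Nsdhl and 0.01 ± 0.12 for Dhcr7. The other members of the later steps, Fdft1, Lss, Tm7sf2, Msmo1, Hsd17b7, Ebp and Sc5d, had log2 fold changes between -0.03 for Lss and 0.09 for Fdft1.

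The sterol enzymes varied together from library to library within both genotypes. For each library, the log2 CPM of each enzyme was set against its own mean over the 8 libraries. The median over the 18 enzymes was -0.17, -0.06, 0.04 and 0.12 across WT1 to WT4, against -0.14, 0.20, 0.14 and -0.11 across KO1 to KO4. WT1, KO1 and the library labelled KO4 were low, and WT4, KO2 and KO3 were high. Of the 18 enzymes, 0, 5, 12 and 16 lay above their own mean across WT1 to WT4, against 1, 17, 16 and 3 across KO1 to KO4. Over all genes tested that share stayed between 49.3% and 53.7% in every library. The steps up to farnesyl diphosphate and the later steps were both low in WT1, KO1 and the library labelled KO4 and both high in WT4, KO2 and KO3. Early-step medians ran from -0.19 in KO1 and WT2 to 0.23 in KO2, and later-step medians from -0.16 in WT1 to 0.16 in KO2. These shifts were small for any 1 gene. The median SD of log2 CPM over the 8 libraries was 0.17 for sterol enzymes and 0.27 for all genes tested.

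**Figure D3:**
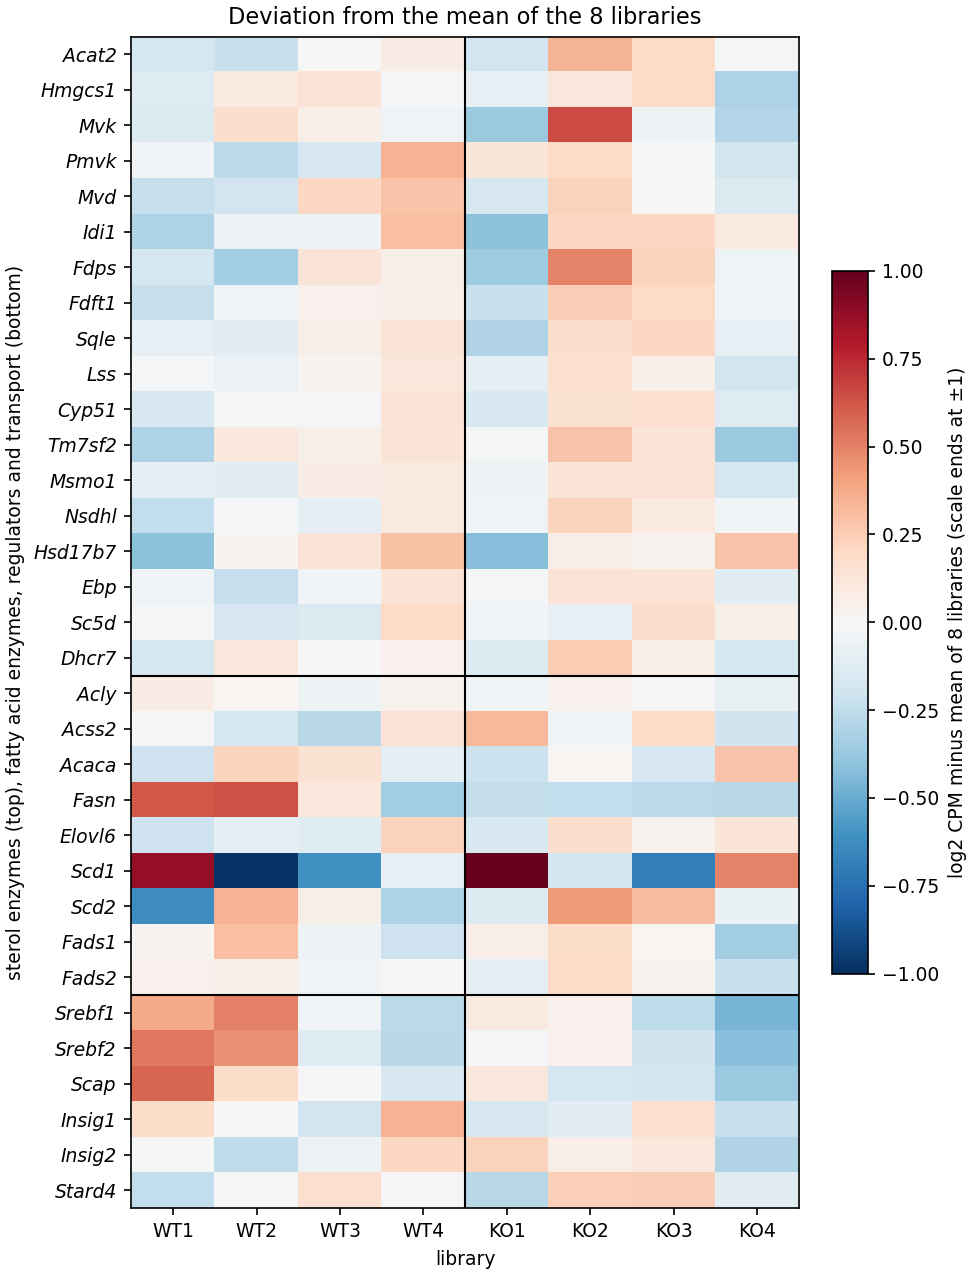
Log2 CPM of each member minus its mean over the 8 libraries (colour), with members in rows by list and libraries in columns. Most sterol rows are low in WT1, KO1 and the library labelled KO4 and high in WT4, KO2 and KO3. The fatty acid rows show no such common pattern.

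Other measures followed that order of libraries only in part. Markers of cycling cells (5 of 5 tested, none at 0) had summed levels of 1833 to 2216 CPM in wild type, against 1893 to 2449 CPM with the knockout, highest in KO2 and KO3. Markers of early lymphoid cells (5 of 5 tested) summed to 9468 to 11108 CPM in wild type, against 9182 to 13238 CPM with the knockout, also highest in KO2 and KO3. Within wild type, by contrast, WT4 had the highest sterol median and the lowest cycling sum, at 1833 CPM. The early lymphoid genes did not move alike, and Irf8 and Ly6d had the highest levels of them in every library. WT4 had the highest early lymphoid sum of wild type, yet its Dntt (853 CPM) and Flt3 (910 CPM) were the lowest of all 8 libraries. In KO3, Il7r was highest at 415 CPM, while Flt3 at 988 CPM lay below WT1 at 1175 CPM. Erythroid markers (5 of 5 tested, none at 0) summed to 33.5 to 433 CPM in wild type, against 30.3 to 164 CPM with the knockout, and were highest in WT1 and KO1, which are low in sterol enzymes. The library labelled KO4 was low in both. The part of these cells in the sterol values was not tested.

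Promoter sequences are shown next for 3 sterol enzymes, the regulator Srebf2 and Fasn. Any relation of these sequences to the shared variation of the sterol enzymes was not tested. Each runs from 250 bases before to 50 after a RefSeq start, on the gene's strand, in build GRCm38.p6. Capitals mark CCAAT or its reverse complement ATTGG, the letters bound by NF-Y, and TCACNCCAC, a form of the sterol response element that SREBPs bind. The regions are Hmgcs1 at chr13:119690101-119690400 (plus strand), Msmo1 at chr8:64733529-64733828 (minus), Cyp51 at chr5:4104648-4104947 (minus), Srebf2 at chr15:82147019-82147318 (plus) and Fasn at chr11:120824498-120824797 (minus).
Hmgcs1: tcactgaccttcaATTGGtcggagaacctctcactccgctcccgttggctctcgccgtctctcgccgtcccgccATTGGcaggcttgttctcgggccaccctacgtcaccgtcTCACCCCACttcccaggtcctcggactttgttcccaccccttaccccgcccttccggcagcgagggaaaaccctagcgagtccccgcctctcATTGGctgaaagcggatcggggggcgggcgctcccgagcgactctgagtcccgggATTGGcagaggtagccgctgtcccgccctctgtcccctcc
Msmo1: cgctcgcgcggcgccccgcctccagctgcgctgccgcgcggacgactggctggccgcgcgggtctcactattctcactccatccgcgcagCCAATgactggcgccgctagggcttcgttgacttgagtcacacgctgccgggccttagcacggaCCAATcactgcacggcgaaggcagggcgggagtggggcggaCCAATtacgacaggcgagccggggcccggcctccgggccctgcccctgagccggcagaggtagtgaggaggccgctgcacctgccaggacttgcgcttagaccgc
Cyp51: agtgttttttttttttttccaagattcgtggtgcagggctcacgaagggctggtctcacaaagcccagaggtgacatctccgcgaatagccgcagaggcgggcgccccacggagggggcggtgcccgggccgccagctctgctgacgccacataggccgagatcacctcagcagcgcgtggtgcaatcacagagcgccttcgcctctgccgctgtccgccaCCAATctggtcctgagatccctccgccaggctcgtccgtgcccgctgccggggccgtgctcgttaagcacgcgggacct
Srebf2: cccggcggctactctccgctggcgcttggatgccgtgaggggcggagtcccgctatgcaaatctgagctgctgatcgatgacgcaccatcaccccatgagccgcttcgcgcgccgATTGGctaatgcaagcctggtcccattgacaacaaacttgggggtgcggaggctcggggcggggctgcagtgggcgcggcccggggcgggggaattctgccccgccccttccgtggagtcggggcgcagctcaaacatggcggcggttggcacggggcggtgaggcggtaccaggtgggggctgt
Fasn: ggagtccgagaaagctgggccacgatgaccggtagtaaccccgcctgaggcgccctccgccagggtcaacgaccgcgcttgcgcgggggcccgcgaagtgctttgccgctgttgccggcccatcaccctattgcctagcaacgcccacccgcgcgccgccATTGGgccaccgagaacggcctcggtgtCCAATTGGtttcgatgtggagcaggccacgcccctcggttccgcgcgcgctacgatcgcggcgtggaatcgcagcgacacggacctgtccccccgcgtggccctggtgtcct
Hmgcs1 holds 4 of the CCAAT letters and 1 sterol response element in these exact letters, and Msmo1 holds 3 CCAAT. Cyp51 and Srebf2 hold 1 each. Fasn holds 3, of which 2 overlap in the palindrome CCAATTGG.

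The same search covered the 26 members that matched a promoter in the RefSeq table, 5 of them with more than 1 promoter, of which any could match. No entry was matched for Fads1, Fdft1, Fdps, Scd1, Scd2, Sqle or Stard4. Searched on both strands, CCAAT occurred in 21 of 26 members, namely in 14 of 15 sterol enzymes, 3 of 6 fatty acid enzymes and 4 of 5 regulators. It occurred in 41.1% of 27025 genes with a promoter in the table and in 42.2% of the 10747 of them that were tested for expression. The Sp1 box GGGCGG occurred in 22 of 26 members, in 14 of 15 sterol enzymes, 3 of 6 fatty acid enzymes and 5 of 5 regulators. For that motif the shares were 38.2% of all these genes and 65.7% of those tested. TCACNCCAC occurred in 1 member, Hmgcs1, and in 1.43% of genes tested, while the E-box TCACGTGA occurred in 0 members and in 2.16% of genes tested. GGGCGG and CCAAT do not overlap in letters. A match describes the letters of these windows and was not tested as a binding site.

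Between genotypes the sterol branch differed by less than its spread over libraries. The estimate was higher in the knockout for 14 of 18 sterol enzymes, with a median log2 fold change of 0.03. None of the 18 had an unadjusted p under 0.05. The 4 wild-type library medians averaged -0.02 ± 0.12 (SD, n = 4) and the 4 knockout ones 0.02 ± 0.18 (SD, n = 4). Scaled by library size alone the count was 8 of 18, with a median of -0.004. It was 11 of 18 on RSEM expected counts, 7 of 18 by limma on TPM, and 7 of 18 without WT1 or without KO2. Without WT4 and the library labelled KO4 it was 17 of 18, with a median of 0.13, against 51.4% of genes with a higher estimate in that fit. WT4 was high and the library labelled KO4 low in sterol enzymes, so leaving them out raised the estimates. The sterol enzymes' log2 fold changes then ran from -0.03 for Hsd17b7 to 0.28 for Fdps. Pmvk had the smallest p of them, with 0.25 ± 0.11 (unadjusted p = 0.0520), followed by Ebp with 0.19 ± 0.10 (unadjusted p = 0.0918) and Acat2 with 0.26 ± 0.14 (unadjusted p = 0.0942). In that fit of 3 against 3 libraries, 12 of 16300 genes passed an adjusted p of 0.05 (0.0736%) and none was a member. Unadjusted p fell under 0.05 for 1427 genes (8.75%) and for 2 members, Fasn and Scap.

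**Figure D4:**
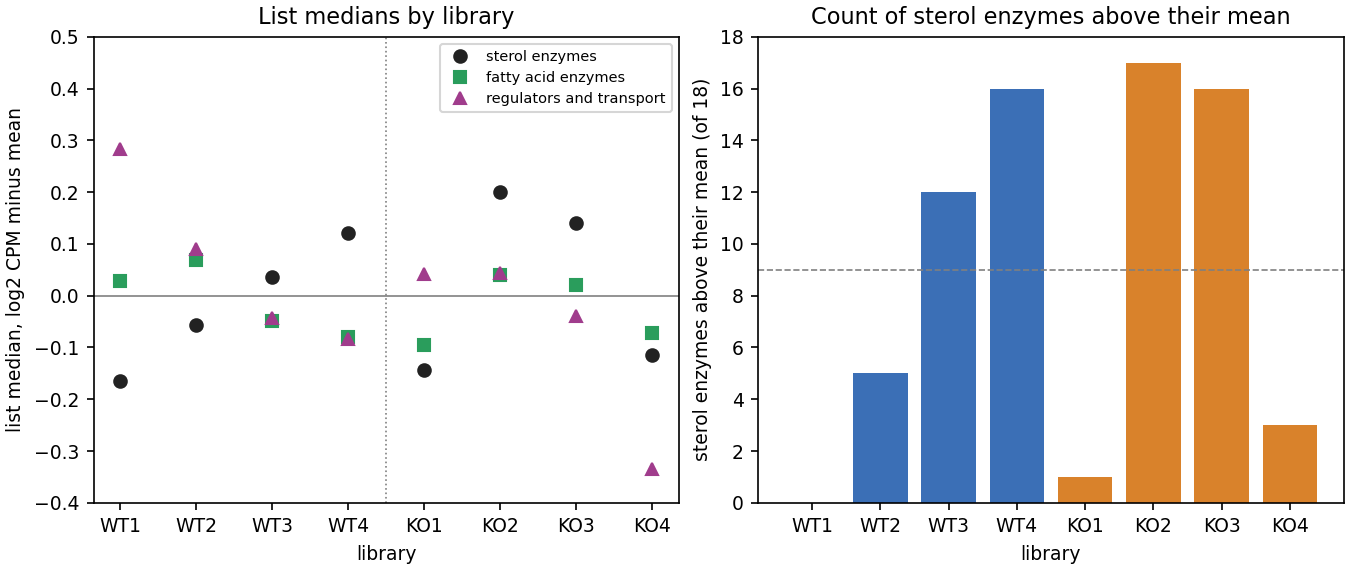
Left, median over each list of log2 CPM minus the gene's mean over the 8 libraries, per library. Right, how many of the 18 sterol enzymes lay above their own mean in each library, with a dashed line at 9. Sterol enzymes run from 0 of 18 in WT1 to 17 of 18 in KO2, with low and high libraries in both genotypes.

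Fatty acid synthesis starts from acetyl-CoA supplied by Acly and Acss2. Acly was the steadiest member, at 417, 401, 383 and 406 CPM across WT1 to WT4, against 384, 408, 398 and 377 CPM across KO1 to KO4. The SD of its log2 CPM over the 8 libraries was 0.05, and its log2 fold change was -0.04 ± 0.08. Acss2, which makes acetyl-CoA from acetate, gave 21.2, 18.6, 17.4 and 23.4 CPM across WT1 to WT4, against 26.5, 20.8, 24.3 and 18.4 CPM across KO1 to KO4. KO1 and KO3 were highest, while KO2 and the library labelled KO4 lay within the wild-type range, and the log2 fold change was 0.16 ± 0.15 (unadjusted p = 0.319). Without WT4 and the library labelled KO4 it was 0.32 ± 0.15 (unadjusted p = 0.0574). Acaca, the acetyl-CoA carboxylase, gave 12.9, 17.3, 16.6 and 14.0 CPM across WT1 to WT4, against 12.8, 15.1, 13.2 and 18.1 CPM across KO1 to KO4. The library labelled KO4 was the highest and KO1 the lowest, and KO1 to KO3 lay below WT2 and WT3. The log2 fold change of Acaca was -0.04 ± 0.16, and -0.19 ± 0.17 (unadjusted p = 0.292) without WT4 and the library labelled KO4.

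Fasn, the fatty acid synthase, lies on chromosome 11 at positions 120696672 to 120715373 (minus strand, coordinates of the count tables, GRCm39). Fasn gave 105, 106, 73.3 and 53.2 CPM across WT1 to WT4, against 57.6, 57.3, 56.3 and 55.9 CPM across KO1 to KO4. The 4 knockout libraries were nearly equal, while wild type split into WT1 and WT2 near 105 CPM, WT3 between, and WT4 below all knockout libraries. Wild type averaged 84.2 ± 25.6 CPM (SD, n = 4) and knockout 56.8 ± 0.773 CPM (SD, n = 4). The log2 fold change was -0.57 ± 0.19 (unadjusted p = 0.0124), rank 45 of 16352 genes by p, and the edgeR adjusted p was 0.999. Without WT4 and the library labelled KO4 it was -0.73 ± 0.14 (unadjusted p = 0.000619), with an adjusted p of 0.166. Leaving out 1 library at a time gave values from -0.73 to -0.45, the former without WT4, with an unadjusted p of 0.000218 and an adjusted p of 0.793. Among libraries with Xist the difference of means was -0.40 on the log2 scale (2 wild type, 3 knockout), and among those without it -0.62 (2 wild type, 1 knockout). Among the 3 deepest libraries it was -0.42, and among the other 5 it was -0.62.

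The Fasn difference was smaller in TPM. Fasn stood at 22.3, 30.8, 28.9 and 26.2 TPM across WT1 to WT4, against 23.2, 23.7, 20.8 and 27.8 TPM across KO1 to KO4. In these units WT1 was lower than every other library except KO3, and the groups overlapped. The log2 fold change by limma on log2(TPM + 1) was -0.17 ± 0.13, unadjusted p = 0.220. Tested on RSEM expected counts, which are not divided by length, it was -0.58. What differed between the scales was the effective length that RSEM assigned to the gene, which follows the transcripts its reads were given to. For Fasn it was 5956, 4502, 3169 and 2395 bases across WT1 to WT4, against 2912, 2821, 3118 and 2631 bases across KO1 to KO4. WT1 and WT2, the libraries with most Fasn counts, had the longest effective lengths. The highest was 2.49 times the lowest, against a median of 1.15 over 16301 genes, of which 819 (5.02%) had a higher ratio. The reason for the change in effective length was not tested.

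**Figure D5:**
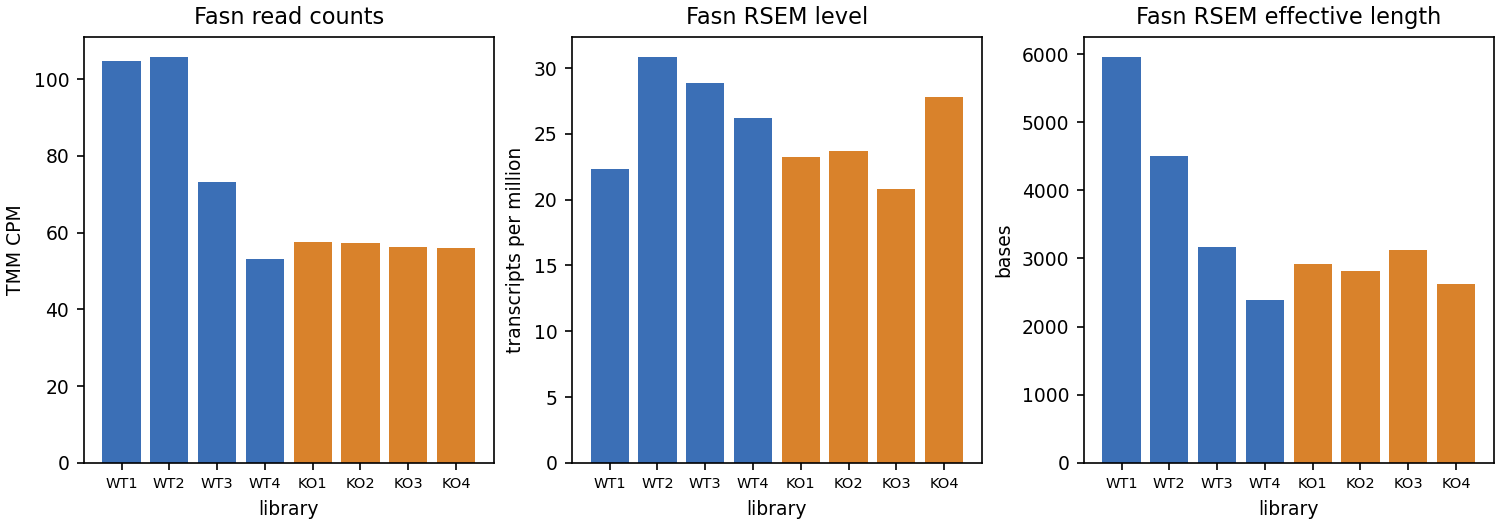
Fasn in the 8 libraries as CPM from counts, as TPM, and as the effective length in bases that RSEM assigned. CPM and effective length are both highest in WT1 and WT2, and TPM overlaps between wild type (22.3 to 30.8) and knockout (20.8 to 27.8).

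Scd1 and Scd2, genes of the same cluster on chromosome 19, encode stearoyl-CoA desaturases that put the first double bond into saturated fatty acids. Scd1 gave 7.42, 2.002, 2.61 and 3.797 CPM across WT1 to WT4, against 9.20, 3.52, 2.46 and 5.70 CPM across KO1 to KO4. WT1, KO1 and the library labelled KO4 were the highest, and the values rest on 80 to 378 counts a library. Scd2 gave 56.0, 110.2, 90.4 and 69.9 CPM across WT1 to WT4, against 78.8, 116, 107 and 82.6 CPM across KO1 to KO4. WT1 was lowest and WT2, KO2 and KO3 were highest, an order unlike that of Scd1. The ratio of Scd2 to Scd1 CPM was 7.55, 55.0, 34.7 and 18.4 across WT1 to WT4, against 8.56, 32.98, 43.6 and 14.5 across KO1 to KO4. The ratio thus ranged widely within both genotypes. In wild type Scd2 stood at 19.8 ± 6.48 TPM (SD, n = 4) and Scd1 at 1.15 ± 0.727 TPM (SD, n = 4), so Scd2 was the main desaturase RNA of the pair. Their log2 fold changes were 0.41 ± 0.47 for Scd1 and 0.24 ± 0.20 (unadjusted p = 0.271) for Scd2. That of Scd1 was 0.89 without WT1 and -0.02 without KO1, so it rested on those libraries.

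The other fatty acid enzymes showed little difference. Elovl6, which lengthens palmitate, ranged from 53.4 to 72.2 CPM with a log2 fold change of 0.09 ± 0.12. Fads1 and Fads2, the desaturases of polyunsaturated fatty acids, ranged from 53.5 to 84.1 CPM and from 195 to 261 CPM. Their log2 fold changes were -0.04 ± 0.14 and -0.03 ± 0.10. Over the 9 enzymes the estimate was higher in knockout for 4, with a median of -0.03, and for 5 with a median of 0.02 without WT4 and the library labelled KO4. The list median per library was 0.03, 0.07, -0.05 and -0.08 across WT1 to WT4, against -0.10, 0.04, 0.02 and -0.07 across KO1 to KO4. Both genotypes held low and high libraries within a narrow range.

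Set against each other, the branches kept no fixed relation across libraries. The sterol median minus the fatty acid median was -0.19, -0.13, 0.08 and 0.20 across WT1 to WT4, against -0.05, 0.16, 0.12 and -0.04 across KO1 to KO4. Wild type included both the lowest and the highest value, and averaged -0.01 ± 0.18 (SD, n = 4), against 0.05 ± 0.11 (SD, n = 4) in knockout. The difference between genotypes was thus smaller than the spread within either.

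Among the regulators, the genes for the SREBP precursors and their escort had lower estimates in the knockout without passing the test. Srebf1, on chromosome 11, gave 136, 148, 102 and 86.8 CPM across WT1 to WT4, against 112, 108, 87.9 and 75.7 CPM across KO1 to KO4. WT1 and WT2 were highest and the library labelled KO4 lowest, with WT3 and WT4 inside the knockout range. Its log2 fold change was -0.31 ± 0.18 (unadjusted p = 0.117), and -0.33 ± 0.15 (unadjusted p = 0.0543) without WT4 and the library labelled KO4. Srebf2, on chromosome 15, gave 403, 384, 255 and 229.8 CPM across WT1 to WT4, against 278, 288, 243 and 209 CPM across KO1 to KO4. WT1 and WT2 stood apart above the other 6 libraries. Its log2 fold change was -0.32 ± 0.19 (unadjusted p = 0.112), and -0.37 ± 0.17 (unadjusted p = 0.0551) without the same libraries. Scap, on chromosome 9, gave 132, 100.3, 88.5 and 79.2 CPM across WT1 to WT4, against 95.6, 78.3, 77.6 and 68.4 CPM across KO1 to KO4. WT1 was highest, and the library labelled KO4 lowest, while WT3 and WT4 overlapped with the knockout. Its log2 fold change was -0.32 ± 0.16 (unadjusted p = 0.0697), and -0.35 ± 0.16 (unadjusted p = 0.0496) without WT4 and the library labelled KO4. Srebf1, Srebf2 and Scap were each lower in every knockout library than in the wild-type library of the same number. The labels do not say whether the numbers pair libraries.

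These 3 genes and Fasn were all highest in WT1 and WT2. Without WT1 the log2 fold changes were -0.24 for Srebf1, -0.20 for Srebf2 and -0.17 for Scap. Without WT2 they were -0.19, -0.23 and -0.33, and without WT4 they were -0.43, -0.45 and -0.42. Without the library labelled KO4 they were -0.21, -0.24 and -0.25. WT1 and WT2 also carried the most Klf1, an erythroid transcription factor, among wild-type libraries, at 40.1 and 17.0 CPM against 4.87 and 1.87 in WT3 and WT4. In the knockout Klf1 stood at 24.3 CPM in KO1 and 7.004 in KO2, against 2.67 and 4.33 in KO3 and the library labelled KO4. Srebf1 and Srebf2 were likewise higher in KO1 and KO2, as were the erythroid genes Alas2, Hba-a1 and Hbb-bs. Gata1, also an erythroid gene, was lower in KO2 (2.96 CPM) than in the library labelled KO4 (3.27 CPM). Across genotypes, KO1 had more Klf1, Gata1, Hba-a1 and Hbb-bs than WT2. It had less Alas2 (3.93 against 4.57 CPM), and less Srebf1 and Srebf2. The part of erythroid cells in these values was not tested. In TPM the wild-type and knockout means were 50.9 and 35.4 for Srebf1, 105 and 87.6 for Srebf2, and 41.1 and 31.1 for Scap.

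The INSIG genes encode the proteins that retain SCAP, and Insig1 is itself an SREBP target. Insig1 gave 76.5, 67.2, 59.0 and 85.7 CPM across WT1 to WT4, against 60.2, 62.1, 75.4 and 57.2 CPM across KO1 to KO4. WT4 and WT1 were highest, but KO3 nearly reached WT1. Its log2 fold change was -0.18 ± 0.13 (unadjusted p = 0.203), and -0.04 without WT4 and the library labelled KO4, so the estimate rested on those libraries. By limma on TPM it was -0.29 ± 0.13, unadjusted p = 0.0460. Insig2 gave 31.1, 26.2, 30.2 and 36.1 CPM across WT1 to WT4, against 36.8, 32.7, 33.7 and 25.4 CPM across KO1 to KO4. KO1 was highest and the library labelled KO4 lowest, and the other 3 knockout libraries lay above WT1 to WT3. The log2 fold change of Insig2 was 0.06 ± 0.14, and 0.24 ± 0.12 (unadjusted p = 0.0819) without WT4 and the library labelled KO4. Stard4, which moves cholesterol between membranes, gave 51.3, 59.8, 68.2 and 60.3 CPM across WT1 to WT4, against 50.2, 71.9, 72.1 and 56.4 CPM across KO1 to KO4. KO2 and KO3 were highest and KO1 lowest, with every wild-type library between them and a log2 fold change of 0.06 ± 0.14. Over the 6 genes the estimate was higher in knockout for 2, with a median of -0.24, and -0.18 without WT4 and the library labelled KO4. The median per library was 0.28, 0.09, -0.04 and -0.08 across WT1 to WT4, against 0.04, 0.04, -0.04 and -0.33 across KO1 to KO4. WT1 was thus the highest library for the regulators and the lowest for the sterol enzymes.

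Other genes of the pathway, 41 in all, were followed for comparison, and 40 passed the filter (Me1 did not). Of the 40, 21 had a higher and 19 a lower estimate in the knockout, with a median of 0.01, and 0 had an unadjusted p under 0.05. Dgat2, which makes triglyceride, had the smallest p, with a log2 fold change of 0.48 ± 0.28 (unadjusted p = 0.120) at means of 1.54 CPM in the wild-type group and 2.14 CPM in the knockout group. Lipa, the lysosomal lipase, followed with 0.14 ± 0.09, Fnta, a subunit of protein prenyl transferases, with -0.31 ± 0.23, and Hsd17b12, an enzyme of fatty acid elongation, with 0.12 ± 0.09. Genes of SREBP processing and sterol sensing were higher for 2 of 8, with a median of -0.06. Genes of non-sterol isoprenoids were higher for 4 of 9, with a median of -0.02. Liver X receptors with cholesterol export and storage were higher for 4 of 6, with a median of 0.08. Lysosomal cholesterol handling was higher for 3 of 5, with a median of 0.13, and fatty acid supply and lipid assembly for 8 of 12, with a median of 0.04.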

How the data were processed

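RNA from 4 wild-type and 4 knockout samples was sequenced. The authors deposited whole-number counts per gene, made with featureCounts 1.6.4 per the file headers, under settings that ignore strand and leave out reads mapped to several places. The authors also deposited RSEM expected counts, TPM and FPKM per gene; FPKM was not used. STAR 2.6.0a, Picard 2.19 and RSEM 1.3.1, and build mm10, are named in the submitters' processing notes, while the count headers name GRCm39. Totals of 31109744 to 73414626 counts were 3.67 to 4.00 times the expected counts.

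Of 53647 identifiers, 52093 were given symbols from the reference's gene name table. The 16352 genes kept by filterByExpr entered a model in edgeR 4.0.16 under R 4.3.3 (TMM, quasi-likelihood F test, Benjamini-Hochberg threshold 0.05). SE was obtained from the fold change and its F statistic. A prior count of 3 was added for log2 CPM. Alternatives used DESeq2 1.42.0, and limma 3.58.1 on log2(TPM + 1) for genes with a mean TPM of at least 1. The fit was tested on simulated counts. Expected counts were rounded for the count test.

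Members and lists were chosen with earlier results of these data known. Values in every library are given for 14 members chosen by their step and for the 3 members of each list with the smallest p, and otherwise by range. Up to 4 other pathway genes are named by p. Promoters came from RefSeq, build GRCm38.p6.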

Additional observations from a re-analysis of the deposited data

How the results depend on the processing

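Among the members' log2 fold changes, 514 alternative values kept their direction and 80 changed sign, and no member reached an adjusted p under 0.05 in any alternative. Fasn, Srebf1, Srebf2 and Scap were among the members that kept a lower estimate in the knockout in every alternative run. Scaled by library size alone, 8 sterol enzymes were higher and Mvk (-0.0087), Sqle (-0.020), Cyp51 (-0.0043), Tm7sf2 (-0.015), Msmo1 (-0.0047) and Dhcr7 (-0.020) changed sign. With no filter beyond 1 count, 836 genes and 2 members had an unadjusted p under 0.05, and Sqle was at -0.0035 and Dhcr7 at -0.0015. With a mean CPM of at least 1, Sqle was at -0.0031 and Dhcr7 at -0.00091. DESeq2 gave 0 genes with an adjusted p under 0.05 and 565 with an unadjusted one. With RSEM expected counts, Mvk was at -0.015, Idi1 at -0.034, Lss at 0.019, Tm7sf2 at -0.027, Dhcr7 at -0.0072 and Acaca at 0.0087. With Xist as a covariate, 457 of 16352 genes and 2 of 33 members (Fasn and Scd2) had an unadjusted p under 0.05. Hmgcs1 was then at 0.0066, Acaca at 0.014 and Fads1 at 0.020. Without WT4 and the library labelled KO4, 12 genes passed the threshold, 1427 genes and 2 members had an unadjusted p under 0.05, and Hmgcs1 (0.039), Mvd (0.093), Lss (0.054) and Fads2 (0.023) changed sign. With limma on RSEM TPM, chosen after seeing the data, 1 gene passed the threshold, 7 sterol enzymes were higher, and Mvk (-0.099), Idi1 (-0.076), Sqle (-0.038), Cyp51 (-0.070), Tm7sf2 (-0.17), Msmo1 (-0.016), Hsd17b7 (0.017), Sc5d (-0.021), Dhcr7 (-0.040) and Acaca (0.045) changed sign. On the promoter's own strand alone, CCAAT occurred in 11 of 26 members, and the share over all genes was not computed for that strand.

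Whether the replicate numbers pair the libraries was not settled by the check used. Same-numbered libraries correlated in their deviations from the group means at 0.36, 0.31, -0.03 and 0.12 across WT1 to WT4. The values for WT1 and WT2 were the highest of any wild-type and knockout combination. WT3 and WT4 correlated best with another number. A fit with the replicate number as a block gave 634 of 16352 genes and 5 of 33 members with an unadjusted p under 0.05. The members were Fasn, Scd2, Srebf1, Srebf2 and Scap, and 0 genes had an adjusted p under 0.05. In that fit the unadjusted p was 0.00691 for Srebf1, 0.0170 for Srebf2 and 0.00624 for Scap. Under that block Mvk was at -0.028 and Sqle at -0.0017.

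Leaving out 1 library at a time, genes with an unadjusted p under 0.05 numbered 168 (without WT2) to 1016 (without WT4), and members 1 to 4. The 4 were Fasn, Srebf1, Srebf2 and Scap, without WT4. Sterol enzymes with a higher estimate numbered 7 (without WT1 or KO2) to 17 (without WT4), and regulators 1 to 2. The fatty acid median ran from -0.045 to 0.062. Log2 fold changes ran from -0.15 to 0.025 for Acaca, -0.030 to 0.079 for Cyp51, -0.080 to 0.069 for Dhcr7, -0.11 to 0.062 for Fads1, -0.11 to 0.030 for Fads2 and -0.11 to 0.055 for Hmgcs1. They ran from -0.15 to 0.090 for Hsd17b7, -0.033 to 0.18 for Idi1, -0.022 to 0.16 for Insig2, -0.092 to 0.022 for Lss, -0.019 to 0.084 for Msmo1 and -0.13 to 0.052 for Mvd. They ran from -0.25 to 0.13 for Mvk, -0.041 to 0.19 for Pmvk, -0.017 to 0.89 for Scd1, -0.062 to 0.093 for Sqle, -0.012 to 0.15 for Stard4 and -0.083 to 0.13 for Tm7sf2. The cause of these changes was not tested. With 4 libraries a group, the median SE of a sterol enzyme's log2 fold change was 0.12; what size of difference could be detected was not tested.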
